A study of Mus musculus with 27 samples.

Results

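The comparison described here sets vector 3T3-L1 cells 0.5 h after the adipogenic mixture against the same cells just before it. It takes 6 of the 27 arrays of the series, 3 at 0.5 h and 3 at 0 h, chosen by construct and time alone, and covers all 19939 genes with a probe set of their own. 3T3-L1 is a mouse fibroblast line that becomes adipocytes when confluent cells are given a hormone mixture. The study measured RNA on Affymetrix mouse gene arrays in cells with the empty vector pMIG or with Flag-ISL1, where ISL1 is a transcription factor of the LIM class. Its other 21 arrays hold later times of the vector cells (1, 2, 4, 8 and 48 h) and ISL1 cells at 0 h and at 48 h.

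Cells of the 0.5 h group had spent that time in medium with 10% fetal calf serum, 350 nM insulin, 0.5 mM isobutylmethylxanthine (IBMX), 250 nM dexamethasone and 400 nM biotin. Cells of the 0 h group were taken just ahead of this medium. They are listed with 10% serum as well and carry no hormone treatment in the labels. Both groups carried pMIG, had been grown to confluence and were held there for 2 days. No group given fresh medium and serum without the hormones is among the 27 arrays, so the action of each agent and that of the medium change cannot be told apart. All arrays come from a single cell line. The study's design text gives groups of biological triplicates, but nothing in the labels says that replicates came from separate cultures. The p-values thus measure the spread between these samples, which may be partly technical.

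A mixture of this kind is read through several signalling routes. IBMX blocks the breakdown of cyclic AMP, which activates the transcription factor CREB. Dexamethasone binds the glucocorticoid receptor, insulin acts through its own and the IGF1 receptor, and serum factors activate the MAP kinases and the serum response factor. The genes that such signals reach before any new protein is made are known as immediate-early genes. Many of them encode transcription factors, and others encode inhibitors of the signal itself. In adipogenesis the early factors Cebpb and Cebpd are known to act ahead of Pparg and Cebpa, which drive the adipocyte programme.

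The 6 arrays resembled each other closely: the mean correlation of an array with the others of its group was 0.9975 to 0.998 at 0.5 h, against 0.9973 to 0.9978 at 0 h. Fibroblast genes such as Vim, Dcn and Col1a1 were high, with a median log2 level over 14 markers of 12.9 at 0.5 h and 12.88 at 0 h, and none of the 14 passed the test. Markers of other cell types lay far lower, at medians of 7.11 at 0.5 h and 7.09 at 0 h for 9 leukocyte genes, 7.1 at 0.5 h and 7.0 at 0 h for 8 endothelial genes and 7.49 at 0.5 h and 7.43 at 0 h for 8 epithelial genes, and none of these 25 passed, although the leukocyte gene Lyz2 stood at 12.02 at 0.5 h and 12.05 at 0 h. The 20 adipocyte markers had a median level of 10.19 at 0.5 h and 10.27 at 0 h. Detection calls were not used here, so a low level cannot be told from background. The labels give no scan or labelling batch. The descriptions of the 0.5 h samples carry a running code that those of the 0 h samples lack, and any difference in handling between these groups cannot be told apart from time.

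At 0.5 h, 155 genes were higher and 100 were lower than at 0 h at an adjusted p under 0.05, which is 0.777% and 0.502% of all genes tested, or 1.28% in either direction. The rises were the larger changes: 61 genes rose at least 2-fold, 21 at least 4-fold and 10 at least 8-fold, while 10 fell at least 2-fold and 1 at least 4-fold. At least 2-fold, these are 0.306% of all genes higher and 0.0502% lower. The arrays of the groups did not overlap for 254 of the 255 genes, the exception being Klf5. Over all genes tested, groups of 3 did not overlap for 14.7%. The median difference over all genes was 0.01 on the log2 scale. Leaving out each of the 6 arrays in turn left 201 to 230 genes past the test, and 127 of the 155 rises and 47 of the 100 falls passed in all 6 of these fits.

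**Figure D1:**
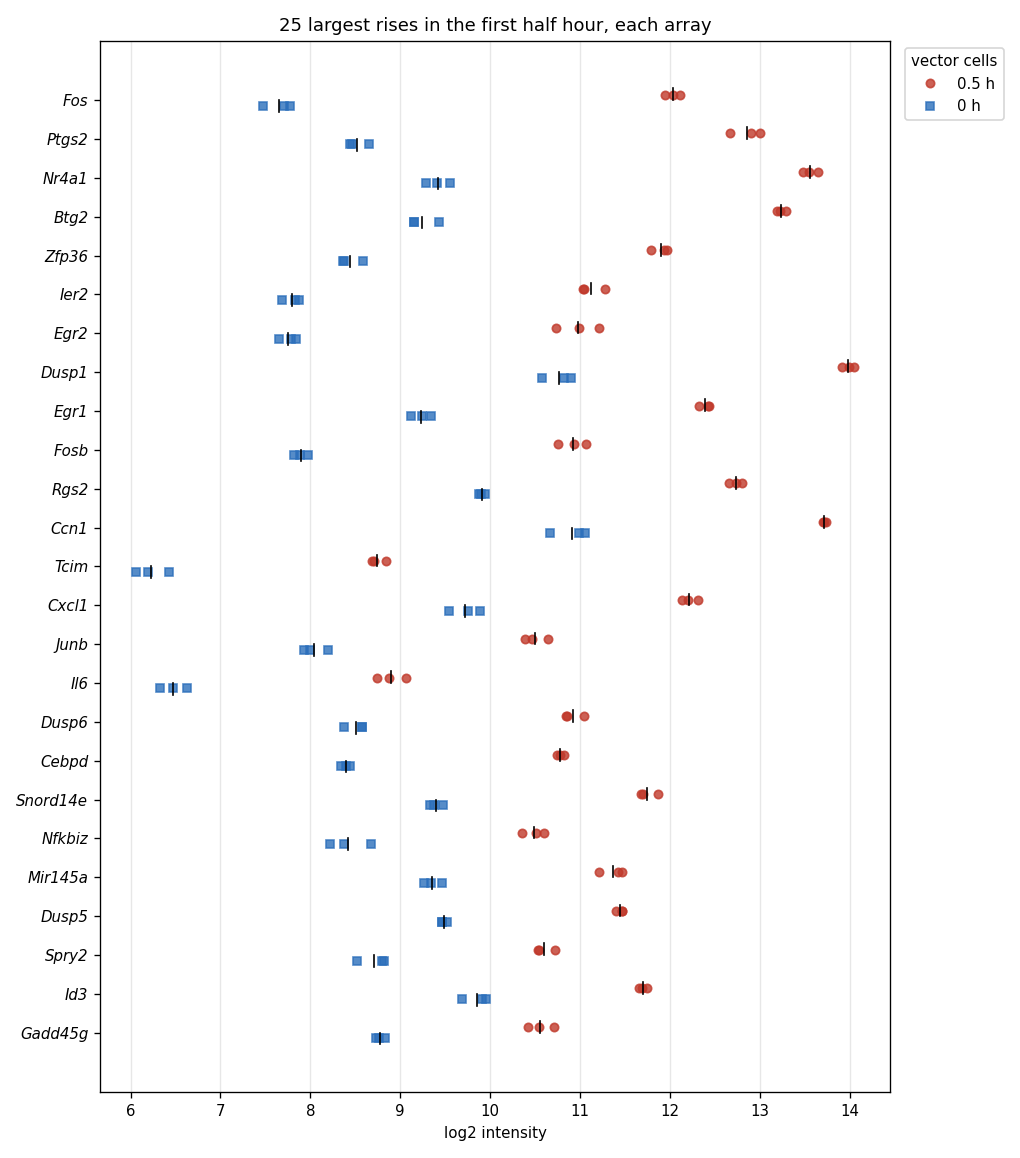
The 25 genes with the largest rises, each array's log2 intensity on the x axis, with vector cells at 0.5 h as circles drawn above those at 0 h as squares (3 arrays each) and a bar at each mean. The groups do not overlap for any of the 25, from Fos with a difference of 4.39 to Gadd45g with 1.78.

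The largest rise was that of Fos, a member of the AP-1 family of transcription factors. AP-1 is a dimer of Fos and Jun proteins that binds DNA in response to growth factors and stress. Of 15 measured AP-1 and related basic leucine zipper genes, 9 rose, none fell and 6 did not pass, with a median difference of 0.42 against 0.01 over all genes. This list and the others of its kind below were written from general knowledge with earlier results of these data known. Their counts are descriptions, and no list was tested. Fos had log2 intensities of 12.11, 11.95 and 12.04 at 0.5 h, against 7.77, 7.71 and 7.47 at 0 h. That 21-fold difference (log2 difference 4.39 ± 0.103 SE, n = 3 each, adjusted p = 7.68e-21) was the largest of any gene, and the groups lay more than 4 log2 units apart. Its close relative Fosb had 10.93, 10.76 and 11.07 at 0.5 h and 7.82, 7.89 and 7.97 at 0 h, a rise of 3.03 ± 0.096. Junb, a dimer partner of Fos, had 10.47, 10.39 and 10.65 at 0.5 h and 7.93, 8.0 and 8.2 at 0 h, a rise of 2.46 ± 0.087. Jun changed less, with 12.11, 12.03 and 12.04 at 0.5 h and 10.94, 10.98 and 11.02 at 0 h, a rise of 1.08 ± 0.06. In these genes every array at 0.5 h stood above every array at 0 h.

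The remaining members rose by less. Fosl2 was 0.74 higher, Maff 0.71, Atf3 0.62, Mafk 0.42 and Fosl1 0.42. The calls for Maff and Fosl1 depended on single arrays: Maff did not pass without array 3 at 0 h (adjusted p = 0.0552), nor did Fosl1 without array 3 of either group (adjusted p = 0.126 without that at 0.5 h and 0.16 without that at 0 h). Jund, a Jun relative with a mean level of 11.0 at 0.5 h, differed by 0.09 and did not pass. Maf differed by -0.02, Mafg by 0.03, Jdp2 by 0.01, Batf by 0.05 and Batf3 by -0.03, and none passed.

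Of 20 measured Egr factors and other serum response genes, 12 were higher and none lower, with a median difference of 0.62. Egr1 and Egr2 encode zinc finger transcription factors that bind GC-rich sites. Egr1 had 12.32, 12.44 and 12.43 at 0.5 h and 9.24, 9.34 and 9.12 at 0 h (difference 3.16 ± 0.081, adjusted p = 2.82e-20). Egr2 had 10.99, 10.73 and 11.21 at 0.5 h and 7.78, 7.65 and 7.84 at 0 h (difference 3.22 ± 0.113, adjusted p = 3.21e-17). The groups of arrays were well apart for both genes. Egr3 rose by 0.88 ± 0.067, whereas Egr4 differed by 0.06 and did not pass. Ier2, a small nuclear immediate-early protein, had 11.05, 11.03 and 11.28 at 0.5 h and 7.87, 7.68 and 7.83 at 0 h, a 10.0-fold difference.

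The matricellular proteins Ccn1 and Ccn2, secreted molecules that bind integrins, rose by 2.81 ± 0.078 and 1.34 ± 0.118. Ccn1 had 13.74, 13.7 and 13.72 at 0.5 h and 11.06, 10.99 and 10.67 at 0 h. Csrnp1 (1.60), Ier3 (1.47), the small GTPase gene Rhob (1.08), the survival factor Mcl1 (0.73) and the polo-like kinase gene Plk2 (0.51) were also higher. Plk3 rose by 0.48 but did not pass on leaving out array 2 or 3 at 0.5 h (adjusted p = 0.133 and 0.175) or array 3 at 0 h (adjusted p = 0.264). Srf itself, the serum response factor, differed by 0.17 at a level of 10.22 at 0.5 h and did not pass, and its cytoskeletal target Vcl differed by 0.07.

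All 3 Nr4a genes rose. They encode orphan nuclear receptors that act without a known hormone and are classical targets of cyclic AMP. Nr4a1 had 13.55, 13.48 and 13.65 at 0.5 h and 9.41, 9.55 and 9.29 at 0 h, a 17.6-fold difference (4.14 ± 0.064, adjusted p = 1.12e-24). Nr4a3 had 8.36, 7.94 and 8.6 at 0.5 h and 6.64, 6.81 and 6.64 at 0 h, a difference of 1.6 ± 0.116. Nr4a2 had 10.52, 10.17 and 10.55 at 0.5 h and 9.52, 9.37 and 9.27 at 0 h, a difference of 1.02 ± 0.088. Array 2 at 0.5 h was the lowest of its group for all 3 genes, yet it stood above every 0 h array.

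Among 24 measured genes listed as cyclic AMP and CREB targets, 13 rose and none fell, with a median difference of 0.68. The Nr4a genes, Fosb, Fosl2 and Atf3 belong to this list as well. Ptgs2, the inducible cyclooxygenase of prostaglandin synthesis, had 12.9, 12.67 and 13.0 at 0.5 h and 8.46, 8.65 and 8.44 at 0 h. Its 20.2-fold rise (4.34 ± 0.104, adjusted p = 7.97e-21) came next after that of Fos. Rgs2, which quenches G protein signalling, had 12.8, 12.66 and 12.74 at 0.5 h and 9.94, 9.9 and 9.88 at 0 h, a rise of 2.82 ± 0.059. Smaller rises were those of the vasodilator peptide gene Adm (1.65), the insulin receptor substrate gene Irs2 (1.18), the clock gene Per1 (1.15), the kinase gene Sik1 (0.92) and the GTPase gene Gem (0.82). Other listed targets had not passed at 0.5 h: Crem had 7.55, 7.68 and 7.81, against 7.66, 7.69 and 7.84 at 0 h, with overlapping groups, and Ppargc1a differed by -0.06. Prkar1a (0.03), Stc1 (-0.11) and Sik2 (0.05) did not pass either.

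Glucocorticoid receptor targets showed 16 rises and no fall among 29 measured genes, with a median difference of 0.49. Several of the largest, Zfp36, Dusp1, Rgs2 and Cebpd, are also known to respond to cyclic AMP or growth factors and are described with their families. The metallothionein genes Mt2 and Mt1, which encode metal-binding proteins, rose by 1.47 ± 0.086 and 1.32 ± 0.061. Mt2 had 12.92, 13.07 and 13.26 at 0.5 h, against 11.53, 11.45 and 11.86 at 0 h, with no overlap. Errfi1, an inhibitor of EGF receptor family kinases, rose by 1.68, the kinase gene Sgk1 by 1.05, the mTORC1 inhibitor gene Ddit4 by 0.92 and the coactivator gene Cited2 by 0.91. Tsc22d3, which encodes the glucocorticoid-induced leucine zipper, rose by 0.49 ± 0.092. Fkbp5, a standard reporter of the receptor at later times, differed by -0.01 and did not pass, and neither did Zbtb16 (0.08), Angptl4 (-0.11) or the receptor gene Nr3c1 (0.03).

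**Figure D2:**
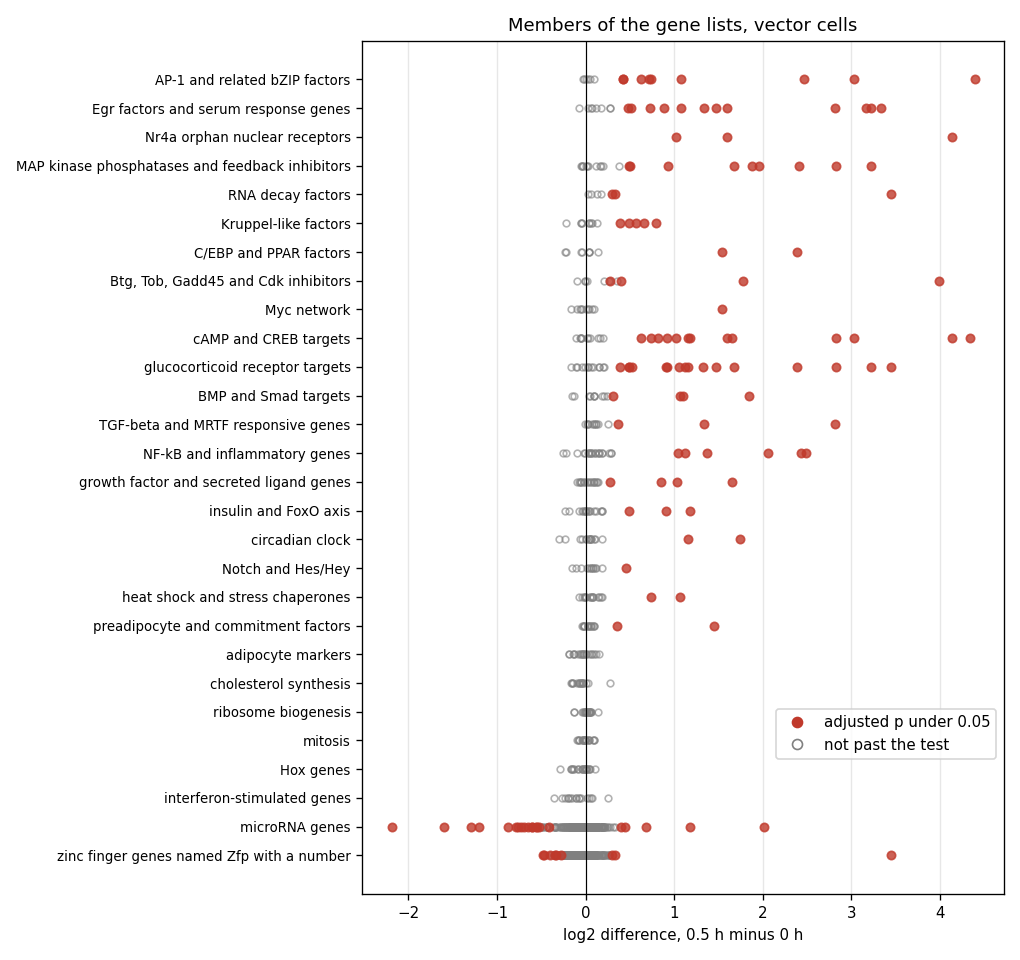
Log2 difference, 0.5 h minus 0 h, of each measured member of the gene lists in vector cells, with filled points for genes at an adjusted p under 0.05 and open points for the others. In the lists of signalling and immediate-early genes every filled point lies to the right of 0, adipocyte, cholesterol, ribosome, mitosis, Hox and interferon genes hold no filled point, and microRNA genes have most filled points to the left.

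Inhibitors of the signal rose together with its targets. Of 21 measured MAP kinase phosphatases, Sprouty proteins and other feedback inhibitors, 9 rose and none fell, with a median difference of 0.20. The dual-specificity phosphatases remove phosphate from MAP kinases. Dusp1 had 13.99, 13.91 and 14.05 at 0.5 h and 10.9, 10.82 and 10.58 at 0 h (difference 3.22 ± 0.074). Dusp6, which acts on ERK, had 10.86, 10.85 and 11.05 at 0.5 h and 8.57, 8.58 and 8.37 at 0 h (difference 2.41 ± 0.092). Dusp5, a nuclear ERK phosphatase, had 11.47, 11.4 and 11.47 at 0.5 h and 9.52, 9.47 and 9.47 at 0 h (difference 1.96 ± 0.062). The groups overlapped for none of these 3 phosphatase genes.

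Dusp4 rose by 0.49 ± 0.109, a call that was lost without array 2 or 3 at 0.5 h (adjusted p = 0.0812 and 0.0773) or array 2 or 3 at 0 h (adjusted p = 0.0579 and 0.186). Dusp2, Dusp7, Dusp8, Dusp10, Dusp14 and Dusp16 did not pass, with differences between -0.04 for Dusp16 and 0.17 for Dusp2. Spry2, an inhibitor of receptor tyrosine kinase signalling, had 10.54, 10.53 and 10.72 at 0.5 h and 8.8, 8.52 and 8.82 at 0 h, a rise of 1.88 ± 0.112, and Spry4 rose by 0.93 ± 0.101. Rgs16 rose by 0.50. Spry1 differed by 0.38 and did not pass, nor did the cytokine signalling suppressors Socs1 (0.00), Socs2 (-0.04) and Socs3 (0.20).

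Genes that shorten the life of messenger RNA were among the rises. Zfp36 encodes tristetraprolin, which binds AU-rich elements of cytokine and immediate-early transcripts and brings about their decay. It had 11.97, 11.94 and 11.79 at 0.5 h and 8.59, 8.36 and 8.38 at 0 h, an 11.0-fold rise (3.45 ± 0.082, adjusted p = 7.97e-21). Its relatives Zfp36l1 and Zfp36l2 rose by 0.33 ± 0.067 and 0.3 ± 0.053. The other 4 of the 7 measured decay factors (Cnot1, Pan3, Zc3h12a and Zc3h12c) did not pass, with differences from 0.03 to 0.17.

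Brakes on the cell cycle also moved early. Of 11 measured members of the Btg, Tob, Gadd45 and Cdk inhibitor families, 4 rose and none fell. Btg2, an antiproliferative protein that recruits the deadenylase complex, had 13.29, 13.19 and 13.23 at 0.5 h and 9.43, 9.15 and 9.15 at 0 h, a 15.9-fold rise (3.99 ± 0.096, adjusted p = 7.97e-21). Gadd45g, a stress sensor, had 10.42, 10.55 and 10.71 at 0.5 h and 8.83, 8.76 and 8.73 at 0 h, a rise of 1.78 ± 0.094. Both genes were far above their 0 h level on every array. Tob2 rose by 0.40 and Btg1 by 0.27. Neither call held on every leave-out: Tob2 was lost without array 3 at 0.5 h (adjusted p = 0.0926) or array 2 at 0 h (0.105), and Btg1 without array 1 or 3 at 0.5 h (adjusted p = 0.0568 and 0.0949) or array 2 at 0 h (0.0678). Gadd45b differed by 0.35 and Gadd45a by 0.26, and neither passed, nor did Tob1 (-0.01) or Cdkn1b (-0.01), which encodes p27.

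Promoter sequences are shown for those of the 10 largest rises whose 250 bases upstream of a RefSeq start hold a full cyclic AMP response element or a CArG box, the site of the serum response factor. Starts on a chromosome left out of this display were not looked at, so a gene not shown may still hold such a site. The table used covers 300 bases per start (250 before and 50 after it), from RefSeq on GRCm38.p6. In capitals are the element TGACGTCA in Btg2 and Dusp1 and the CArG box in Zfp36 and Egr2, and each stretch of 110 bases reads 5′ to 3′ on the gene's strand. Btg2 lies at chr1:134079263-134079372 on the minus strand, Dusp1 at chr17:26508557-26508666 on the minus strand and Zfp36 at chr7:28379229-28379338 on the minus strand. Egr2 has 5 starts in the table, and the stretches from a pair of them lie at chr10:67537444-67537553 and chr10:67537747-67537856 on the plus strand.
Btg2: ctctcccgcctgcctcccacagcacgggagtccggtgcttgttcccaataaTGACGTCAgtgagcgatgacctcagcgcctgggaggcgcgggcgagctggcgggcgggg
Dusp1: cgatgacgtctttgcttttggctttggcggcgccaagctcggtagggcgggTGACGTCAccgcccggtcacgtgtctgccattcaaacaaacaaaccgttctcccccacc
Zfp36: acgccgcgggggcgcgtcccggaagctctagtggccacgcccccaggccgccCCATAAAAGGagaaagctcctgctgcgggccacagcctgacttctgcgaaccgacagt
Egr2, upstream start: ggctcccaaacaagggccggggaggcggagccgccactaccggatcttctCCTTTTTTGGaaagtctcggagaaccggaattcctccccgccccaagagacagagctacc
Egr2, downstream start: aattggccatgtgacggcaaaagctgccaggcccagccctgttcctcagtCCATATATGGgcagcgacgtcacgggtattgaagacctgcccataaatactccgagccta

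Over all genes, such letters were counted in the full 300-base windows on both strands. Of the 61 genes that rose at least 2-fold, 43 had a window. TGACGTCA was found in 5 of these 43 (11.6%), against 2.72% of the 15563 tested genes with a window and 2.03% of the 27025 genes in the table. The shorter core TGACG, counted on either strand and contained in every full element, was found in 67.4% of these 43 genes, against 28.0% of the tested genes. Of the 68 falling genes with a window, 33.8% held this core and 4.41% the full element. The CArG box was found in 3 of the 43 (6.98%) and in 1.63% of the tested genes, and the AP-1 site TGANTCA in 5 (11.6%) and 8.06%. Among the falling genes the shares were 0.0% for the CArG box and 2.94% for the AP-1 site. The rising genes have more annotated starts, at 1.47 windows per gene against 1.23 over the tested genes, which gives them more letters to match. How much of the difference this makes was not tested, and a match in letters does not show that a factor binds there.

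A small set of inflammatory genes rose. Of 27 measured NF-kB and inflammatory genes, 6 rose, none fell and 21 did not pass. The neutrophil chemokine gene Cxcl1 had 12.2, 12.14 and 12.31 at 0.5 h and 9.89, 9.75 and 9.54 at 0 h (difference 2.49 ± 0.126). Il6, a cytokine gene, had 8.88, 8.74 and 9.07 at 0.5 h and 6.63, 6.47 and 6.33 at 0 h (difference 2.43 ± 0.176). Nfkbiz, a nuclear partner of NF-kB, had 10.51, 10.36 and 10.6 at 0.5 h and 8.68, 8.37 and 8.22 at 0 h (difference 2.06 ± 0.101). The groups were apart in each. Nfkbia, which encodes the NF-kB inhibitor that resynthesis restores, rose by 1.12, and the monocyte chemokine genes Ccl7 and Ccl2 by 1.37 and 1.04. Other classical targets, Tnfaip3 (0.29), Icam1 (0.18), Cxcl2 (0.26) and Tnf (0.04), did not pass, nor did Vcam1 (0.07), Ptges (-0.01) and Csf1 (0.06).

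Among secreted growth factors, 4 of 21 measured genes rose. Besides Adm these were the EGF receptor ligands Ereg (1.03 ± 0.101) and Hbegf (0.85 ± 0.107) and, by 0.27 ± 0.064, Vegfa. The Vegfa call rested on most arrays: it was lost on leaving out array 1 or 3 at 0.5 h (adjusted p = 0.246 and 0.0677) or any at 0 h (adjusted p = 0.0557, 0.144 and 0.108). Bmp4, the gene of a BMP ligand, had 11.61, 11.88 and 11.94 at 0.5 h and 11.83, 11.77 and 11.73 at 0 h, with overlapping groups (difference 0.03). Its mean was 9.73 at 2 h and 7.71 at 8 h.

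Targets of BMP and Smad signalling included the Id genes, whose products hold basic helix-loop-helix factors away from DNA. Id3 had 11.69, 11.66 and 11.75 at 0.5 h and 9.96, 9.91 and 9.69 at 0 h, a rise of 1.84 ± 0.076. Id1 rose by 1.10 ± 0.085 and Id2 by 1.06 ± 0.071, again with no overlap, and Id4 differed by 0.24 and did not pass. Of the 14 measured BMP and Smad targets, 4 rose and none fell. The fourth was Smad7, an inhibitor of the pathway, higher by 0.31, which was lost without array 1 or 3 at 0.5 h (adjusted p = 0.0647 and 0.106) or array 2 or 3 at 0 h (adjusted p = 0.108 and 0.132). Further lists overlapped these: of 14 TGF-beta and MRTF responsive genes 3 rose (Ccn1, Ccn2 and, by 0.37, the matrix protein gene Thbs1), of 20 insulin and FoxO genes 3 rose (Irs2, Cited2 and Tsc22d3) and of 13 Notch pathway genes 1 rose (Hes1, by 0.46).

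Krüppel-like factors, zinc finger transcription factors of which several take part in adipogenesis, moved modestly: 5 of 14 rose, none fell, and the median was 0.06. Klf4 had 10.92, 10.97 and 10.93 at 0.5 h and 10.18, 10.2 and 10.08 at 0 h, a rise of 0.79 ± 0.08. Klf6 rose by 0.66 ± 0.079, Klf2 by 0.57 ± 0.094, Klf5 by 0.49 ± 0.094 and Klf9, a glucocorticoid target, by 0.39 ± 0.086. Klf5, whose groups overlapped, did not pass in the fit to the 6 arrays alone (adjusted p = 0.0734). Klf9 did not pass in that fit either (adjusted p = 0.0705), nor without array 3 of either group (adjusted p = 0.184 without that at 0.5 h and 0.179 without that at 0 h). Klf3, Klf7, Klf10, Klf11, Klf12, Klf13, Klf14, Klf15 and Klf16 did not pass, with differences from -0.22 for Klf10 to 0.13 for Klf7.

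Of 10 measured C/EBP and PPAR family genes and partners, Cebpd and Cebpb rose and none fell. Cebpd had 10.82, 10.75 and 10.78 at 0.5 h and 8.34, 8.4 and 8.44 at 0 h, a 5.25-fold rise (2.39 ± 0.086, adjusted p = 5.47e-17). Cebpb had 10.74, 10.51 and 10.78 at 0.5 h and 9.27, 9.18 and 8.95 at 0 h, a 2.92-fold rise (1.54 ± 0.086, adjusted p = 7.23e-13). Every 0.5 h array was above every 0 h array for both. Pparg had 11.73, 11.77 and 11.73 at 0.5 h and 11.86, 11.72 and 11.75 at 0 h, and Cebpa had 9.09, 9.04 and 9.09 at 0.5 h and 9.2, 9.1 and 9.06 at 0 h. Their groups overlapped, with differences of -0.04 ± 0.06 and -0.05 ± 0.101 (adjusted p = 0.999 each). Cebpg (-0.23), Cebpe (0.14) and Ddit3 (-0.22), the other measured C/EBP genes, did not pass. Of 20 adipocyte markers, Pparg and Cebpa among them, none passed, with differences from -0.19 to 0.15.

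Of 16 preadipocyte and commitment factors, Foxc2 and Sox9 rose. Foxc2, a forkhead factor, had 10.52, 10.4 and 10.71 at 0.5 h and 9.06, 9.07 and 9.13 at 0 h, a rise of 1.45 ± 0.079. Sox9, a factor of chondrocyte and progenitor cells, rose by 0.35 ± 0.057. Dlk1 (0.03 at a level of 14.34 at 0.5 h), Ebf1 (0.06) and Tcf7l1 (-0.02) did not pass. Myc, a driver of growth, was the 1 gene of 11 in its network to pass, with 10.95, 11.02 and 11.19 at 0.5 h and 9.59, 9.64 and 9.3 at 0 h, a rise of 1.54 ± 0.079. Of 17 clock genes, Nfil3 rose by 1.74 and Per1 by 1.15, while Per2 (0.04), Nr1d1 (0.01), Dbp (-0.04) and Clock (0.09) did not pass. Of 18 heat shock and stress genes the cochaperone genes Dnajb4 (1.07) and Dnajb1 (0.74) rose.

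Several further lists had no gene past the test at 0.5 h. None passed of 16 cholesterol synthesis genes (differences from -0.16 to 0.28), 19 ribosome biogenesis genes (-0.13 to 0.14), 19 mitosis genes (-0.1 to 0.1), 22 Hox genes (-0.29 to 0.11) or 17 interferon-stimulated genes (-0.36 to 0.25). These counts come from limma, in which 1.28% of all genes passed and 1255 had an unadjusted p under 0.05. At a share of 1.28%, lists of this size would often hold no call. Isl1 itself was low in these vector cells, at 7.45, 7.31 and 7.31 at 0.5 h and 7.37, 7.47 and 7.17 at 0 h, with overlapping groups.

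Most of the large rises had their highest mean after 0.5 h. Of the 61 genes at least 2-fold higher, 11 had their highest mean over the first 8 h at 0.5 h, 28 at 1 h, 14 at 2 h, 7 at 4 h and 1 at 8 h. Fos was among those at their highest, with means of 7.65 at 0 h, 12.04 at 0.5 h, 11.74 at 1 h, 9.45 at 2 h and 8.48 at 8 h. Zfp36, Ier2 and Cxcl1 were also highest at 0.5 h. Nr4a3 had only begun to move, with 6.7 at 0 h, 8.3 at 0.5 h, 11.53 at 1 h and 12.12 at 2 h. Cebpb had 9.13 at 0 h, 10.68 at 0.5 h, 11.92 at 2 h and 11.15 at 8 h, and Myc had 9.51 at 0 h, 11.05 at 0.5 h and 12.83 at 2 h. Dusp1 stayed high, with 10.77 at 0 h, 13.98 at 0.5 h, 14.26 at 2 h and 13.74 at 8 h. These time courses are descriptions, and no order of times was tested.

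**Figure D3:**
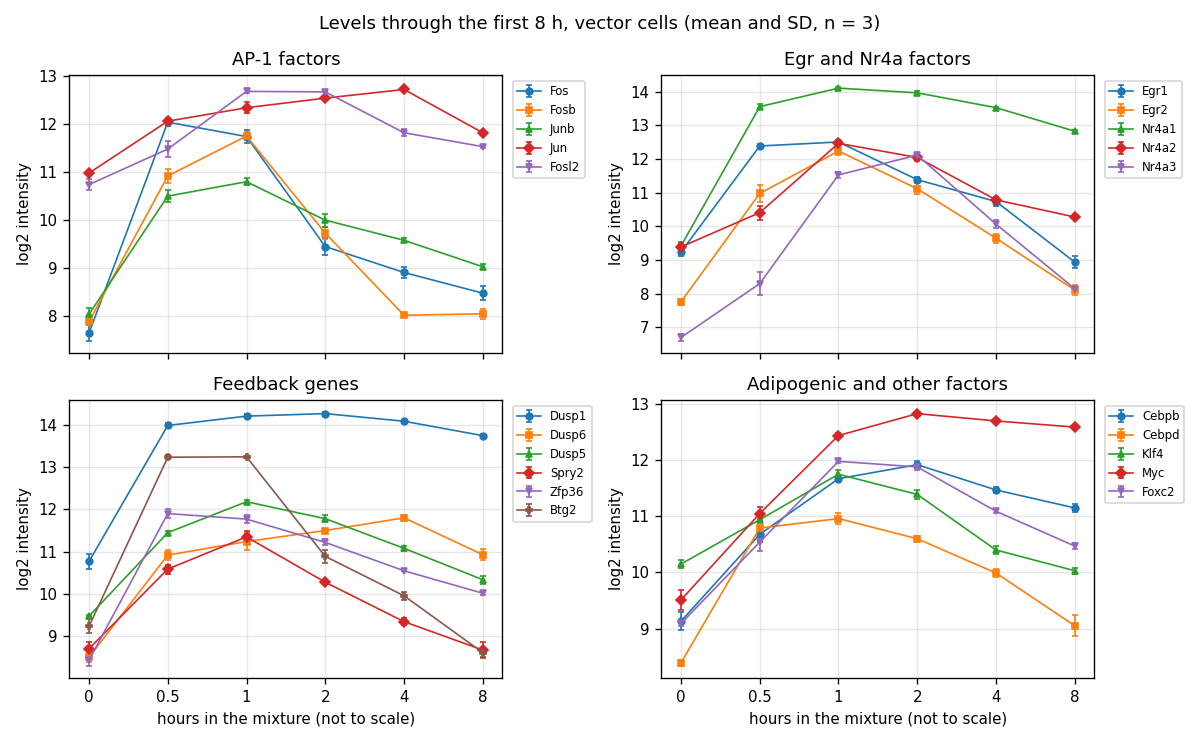
Mean log2 intensity with SD (n = 3 at each time) of genes that rose at 0.5 h, over the first 8 h in vector cells, with times evenly spaced on the x axis. Fos is highest at 0.5 h and had a mean of 9.45 by 2 h, whereas Nr4a3 went on to 12.12 at 2 h and Dusp1 stayed at 13.74 at 8 h.

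Noncoding genes made up more of the falls than of the rises. Protein-coding genes made up 91.6% of the rises (142 of 155) and 47.0% of the falls (47 of 100). Of 675 genes annotated as lncRNA, 27 fell and 3 rose, that is 4.0% and 0.444%. Among 297 genes annotated as miRNA, 15 fell and 5 rose, that is 5.05% and 1.68%. Mir100hg, a microRNA host gene annotated as lncRNA, fell by 0.41. For the 18556 protein-coding genes the shares were 0.253% lower and 0.765% higher. The median difference was 0.011 over lncRNA genes and -0.02 over microRNA genes, against 0.01 over protein-coding genes.

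The largest fall was that of Mir199b, with 7.89, 7.91 and 7.91 at 0.5 h and 9.82, 10.24 and 10.21 at 0 h. It was 4.55-fold lower (-2.19 ± 0.123, adjusted p = 9.17e-13). A probe set for a microRNA gene on this array reads the precursor or a longer transcript from that place, so its level says nothing direct about the mature microRNA. Mir199a-1 had 9.38, 9.09 and 9.27 at 0.5 h and 10.58, 10.26 and 10.5 at 0 h (-1.2 ± 0.084). Mir130a had 5.67, 5.69 and 5.94 at 0.5 h and 7.32, 7.43 and 7.36 at 0 h (-1.6 ± 0.104). Mir301 had 5.84, 6.14 and 5.98 at 0.5 h and 7.44, 7.06 and 7.31 at 0 h (-1.29 ± 0.127). In all 4, every 0.5 h array was below every 0 h array.

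Mature sequences from RefSeq (GRCm38.p6) are shown for the microRNA genes that changed and share a seed, since microRNAs with the same seed are held to bind the same target sites. Seeds were compared for 18 of the 20 microRNA genes past the test. Capitals mark the seed, bases 2 to 8. The products named 3p of Mir199a-1 (chr9:21496498-21496519, minus strand) and Mir199b (chr2:32318524-32318545, plus strand) are identical over their whole length. The 3p products of Mir130a (chr2:84741116-84741137, minus strand) and Mir301 (chr11:87113054-87113076, plus strand) share a seed, as do those of Mir148a (chr6:51269829-51269850, minus strand) and Mir152 (chr11:96850439-96850459, plus strand). The 5p products listed for these genes share no seed with another gene compared.
mmu-miR-199a-3p: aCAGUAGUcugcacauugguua
mmu-miR-199b-3p: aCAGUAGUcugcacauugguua
mmu-miR-130a-3p: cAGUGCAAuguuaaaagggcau
mmu-miR-301a-3p: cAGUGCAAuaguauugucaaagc
mmu-miR-148a-3p: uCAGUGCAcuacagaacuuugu
mmu-miR-152-3p: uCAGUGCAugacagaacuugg

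All 6 genes of these seed groups were lower at 0.5 h. Only genes past the test were compared, though, and 15 of those 20 microRNA genes fell and 5 rose. Genes with the same seeds that did not pass were not looked at, so no whole seed family is described. Mir152 had 7.72, 7.87 and 7.82 at 0.5 h and 8.7, 8.38 and 8.52 at 0 h (-0.73 ± 0.093), and Mir148a had 4.39, 4.62 and 4.72 at 0.5 h and 5.23, 5.3 and 5.27 at 0 h (-0.69 ± 0.09). The level of Mir148a lay near the low end of the scale, whose lowest value on any array was 3.35. Mir450b (-0.78) and Mir10b (-0.65) also lay near it, with 0.5 h arrays from 3.75 to 3.8 and from 4.44 to 4.7. At 0.5 h Mir1839 stood at 4.87 to 5.05, and Mir130a and Mir301 had means of 5.77 and 5.99. All of these lay below the medians given above for markers of other cell types, where a level cannot be told from background. Mir6516 (-0.60) and Mirlet7e (-0.55) fell as well.

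Other microRNA calls depended on single arrays. Mir186 (-0.88 ± 0.217) did not pass without array 1 or 3 at 0.5 h (adjusted p = 0.089 and 0.3) or array 2 or 3 at 0 h (adjusted p = 0.184 and 0.265). Mir15a (-0.61) did not pass without array 2 or 3 at 0.5 h (adjusted p = 0.0922 and 0.0897) or array 1 or 3 at 0 h (0.13 and 0.0979). Mir1839 (-0.76) was lost without array 3 at 0.5 h (adjusted p = 0.0563) and Mir505 (-0.56) without array 3 at 0 h (0.0554). Mir365-1 (-0.53) was lost on leaving out any of 4 arrays, with adjusted p = 0.297 and 0.136 without arrays 2 and 3 at 0.5 h and 0.422 and 0.0614 without arrays 1 and 3 at 0 h, each left out alone. Array 3 at 0.5 h or array 3 at 0 h is among those whose omission ends each of these calls.

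Several of these small genes lie within longer genes, and in most such pairs the longer gene's own probe set did not pass the test. Dnm1, in whose region Mir199b lies, averaged 12.26 ± 0.066 at 0.5 h and 12.3 ± 0.077 at 0 h (SD, n = 3 each), a difference of -0.03. Dnm2 around Mir199a-1 differed by 0.02, Ska2 around Mir301 by -0.05, Copz2 around Mir152 by -0.05 and Zranb2 around Mir186 by -0.24, and none passed. Dleu2 around Mir15a differed by -0.47 ± 0.19 (adjusted p = 0.575), against -0.61 for Mir15a. Around Mir10b (-0.65), Hoxd4 differed by -0.29 ± 0.084 (adjusted p = 0.142) and Hoxd3 by -0.09, and neither passed. Spaca6 around Mirlet7e did pass and differed by -0.73 ± 0.1. The spanning genes were found by overlapping positions in the RefSeq table, and they were looked up after the microRNA values were seen. Strand was not considered, so a longer gene may lie on the opposite strand and give a separate transcript.

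Rises among microRNA genes came from a pair of gene clusters. Mir145a had 11.42, 11.21 and 11.47 at 0.5 h and 9.47, 9.26 and 9.34 at 0 h, a 4.02-fold rise (2.01 ± 0.115). Mir143, its partner in the same cluster, had 9.34, 9.38 and 9.41 at 0.5 h and 8.33, 8.17 and 8.1 at 0 h (1.18 ± 0.086). Both were back near their start by 1 h, with means of 9.56 for Mir145a and 8.28 for Mir143. Mir27a had 9.72, 9.48 and 9.82 at 0.5 h and 9.2, 8.86 and 8.92 at 0 h (0.68 ± 0.11).

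The neighbours of Mir27a on chromosome 8, Mir23a (0.44) and Mir24-2 (0.40), were also higher, and their mature sequences do not share a seed. Mir23a did not pass without array 1 or 3 at 0.5 h (adjusted p = 0.145 and 0.342), without array 2 or 3 at 0 h (0.236 and 0.164) or with the replicate number as a block (0.0505). Mir24-2 did not pass without array 3 at 0.5 h (adjusted p = 0.139) or array 2 or 3 at 0 h (0.0885 and 0.107).
mmu-miR-23a-3p: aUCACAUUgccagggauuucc
mmu-miR-27a-3p: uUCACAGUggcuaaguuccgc
mmu-miR-24-3p: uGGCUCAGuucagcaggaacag

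**Figure D4:**
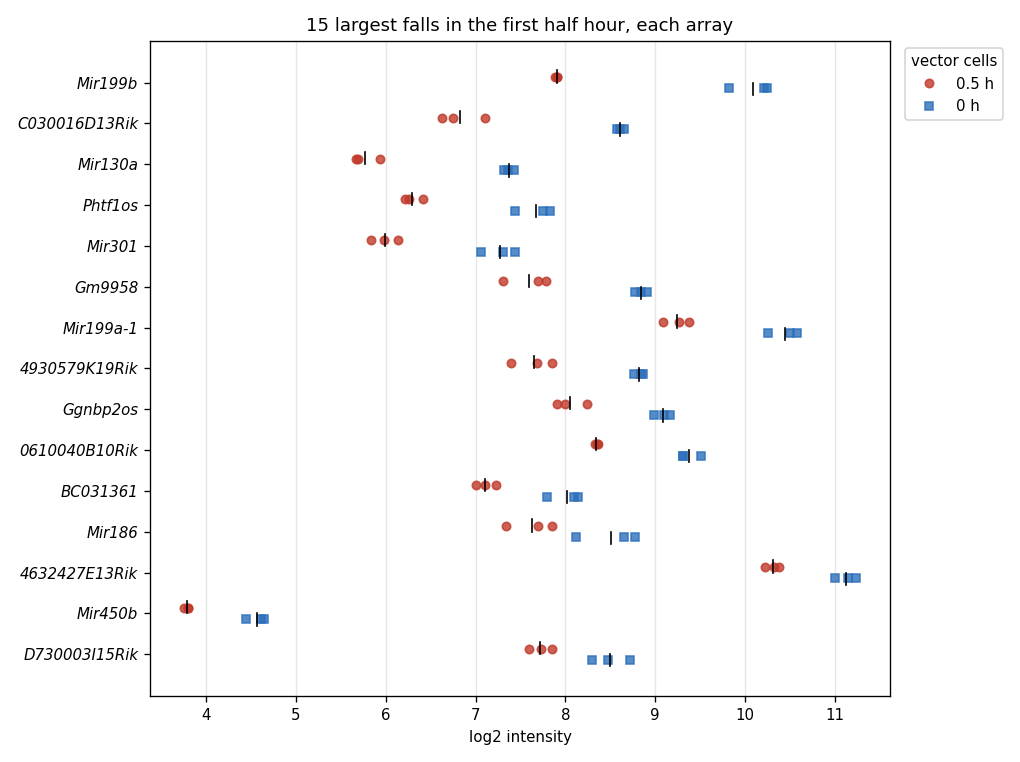
The 15 genes with the largest falls, each array's log2 intensity on the x axis, with vector cells at 0.5 h as circles drawn above those at 0 h as squares (3 arrays each) and a bar at each mean. All 15 are microRNA or lncRNA genes, and the groups do not overlap for any of them.

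The long noncoding genes that fell have no function given in the files. C030016D13Rik had 7.1, 6.63 and 6.75 at 0.5 h and 8.61, 8.65 and 8.58 at 0 h, a 3.45-fold difference (-1.79 ± 0.126, adjusted p = 1.01e-10). Phtf1os differed by -1.38 ± 0.154, Gm9958 differed by -1.24 ± 0.18 and 4930579K19Rik by -1.18 ± 0.086. Ggnbp2os (-1.04), 0610040B10Rik (-1.03), BC031361 (-0.91), 4632427E13Rik (-0.82) and D730003I15Rik (-0.78) complete the 15 largest falls. No 0.5 h array of these 9 genes reached the level of any 0 h array.

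The time of the lowest mean differed among the 100 genes chosen as lower at 0.5 h. Of these, 38 had their lowest mean over the first 8 h at 0.5 h, 29 at 1 h, 17 at 2 h, 10 at 4 h and 6 at 8 h. Mir199b averaged 10.09 at 0 h, 7.9 at 0.5 h, 9.01 at 1 h and 9.8 at 4 h. C030016D13Rik averaged 8.61 at 0 h, 6.83 at 0.5 h, 7.47 at 2 h and 7.84 at 4 h. Mir130a and Mir199a-1 stayed low, at 5.77 and 9.15 at 8 h.

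**Figure D5:**
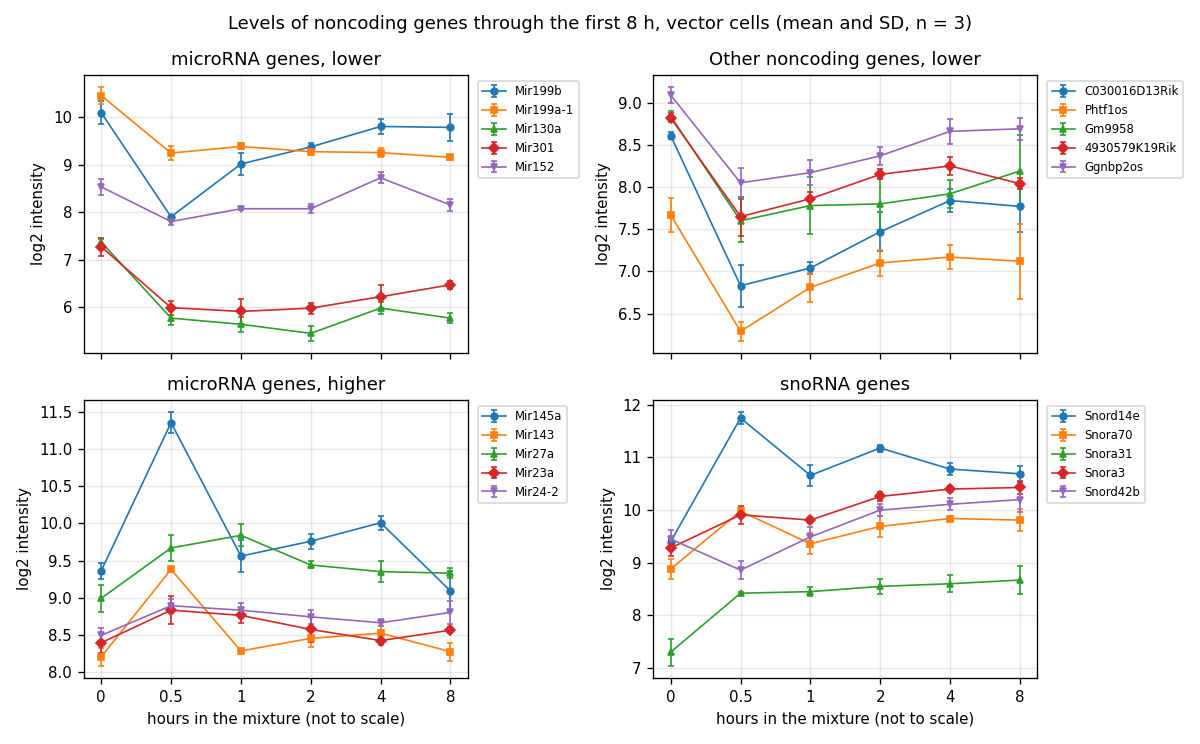
Mean log2 intensity with SD (n = 3 at each time) of noncoding genes over the first 8 h in vector cells, with times evenly spaced on the x axis and a panel each for microRNA genes that fell, lncRNA genes that fell, microRNA genes that rose and snoRNA genes. Mir199b is lowest at 0.5 h and had a mean of 9.8 by 4 h, Mir130a stayed at 5.77 at 8 h, and Mir145a had a mean of 11.36 at 0.5 h and 9.56 at 1 h.

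Protein-coding falls were small, the largest being those of Spaca6 (-0.73), Set (-0.66) and Tmem208 (-0.65). Of 347 genes named Zfp with a number, 6 fell and 3 rose, against 0.502% and 0.777% of all genes, and the 3 rises were those of Zfp36, Zfp36l1 and Zfp36l2. The largest falls among these Zfp genes were Zfp748 (-0.48 ± 0.094) and Zfp354b (-0.47 ± 0.095), followed by Zfp952 (-0.40), Zfp46 (-0.34) and Zfp747 (-0.33). Zfp748 had 7.79, 7.85 and 7.7 at 0.5 h and 8.33, 8.16 and 8.29 at 0 h, with no overlap.

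The ISL1 cells at 0 h are a further set of uninduced cells whose arrays did not enter the difference. Their mean was nearer to that of vector cells at 0 h than at 0.5 h for 57 of the 61 genes at least 2-fold higher and for all 10 genes at least 2-fold lower. Over all calls this held for 137 of 155 rises and 82 of 100 falls. These cells differ from vector cells in carrying ISL1, and the labels do not say which arrays were handled together. The nearness is thus a description and not a repeat of the comparison, and it cannot tell time from handling.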

How the data were processed

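RNA from 27 samples in 9 groups of 3 was measured on Affymetrix mouse gene arrays. The deposited values are log2 intensities of 28853 probe sets, which the authors made with RMA per the submitters' processing notes. Which software ran RMA, in which version and on which genome build, the sources used here do not give. The log base was taken as 2 from the range of 3.35 to 14.85. The 21789 probe sets with 1 gene symbol were named from the platform's table, with symbols updated to RefSeq GRCm38.p6 through Entrez IDs (21698 matched). Where a gene had several probe sets (998 genes), that of the highest mean stood for it, so that 19939 genes were tested. limma 3.58.1 in R 4.3.3 fitted all 27 arrays with a mean per group (18 residual degrees of freedom), and the difference 0.5 h minus 0 h in vector cells was tested two-sided by moderated statistics with Benjamini-Hochberg adjustment over all 19939 genes. The spread is thus shared over all groups. Tables were made with Python 3.11.15 and pandas 2.3.3, and the fit was tested on simulated data.

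The genes named are Isl1, Bmp4, Pparg, Cebpa, Cebpb and Cebpd, the 25 largest rises and 15 largest falls, the leading members of each list, whole families of early genes and all microRNA genes past the test. The comparison, the lists and this rule were chosen with earlier results of these data known, and several genes belong to more than 1 list. Alternatives were fewer arrays, an intensity trend with a robust prior, array weights, centring, renewed quantile normalization, a filter on dim genes, the mean of probe sets, all probe sets, the replicate number as a block and each array left out. The number of arrays limits the precision.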

Additional observations from a re-analysis of the deposited data

Results flagged for a closer look

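Probe sets that carry no gene symbol in the platform's table took no part in the comparisons above, and some of them passed the test too. Of 5443 such probe sets, 20 were higher and 66 were lower at 0.5 h than at 0 h when all 28853 probe sets were tested together with limma (adjusted p under 0.05). Of these, 6 rose and 5 fell at least 2-fold, and the largest differences were 2.71 and -1.19 on the log2 scale. Among the 1621 probe sets with several symbols, 12 were higher and 8 lower. For scale, 159 of the 21789 probe sets with 1 symbol were higher in this fit and 100 were lower. In the main comparison 0.777% of all genes tested were higher and 0.502% lower. What the probe sets with no symbol measure is not given in the table used here.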

How the results depend on the processing

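No named gene reversed direction under any of the 17 alternatives. Of 113 named genes past the test, 17 lost the call under at least 1 alternative, 16 of them when 1 array was left out. The other, Klf5, was lost in the fit to the 6 arrays alone (adjusted p = 0.0734). Klf9, Btg1, Fosl1, Plk3, Smad7, Vegfa and Mir365-1 also lost the call in that fit, with adjusted p from 0.0705 to 0.13. Estimated array weights, whose estimation did not converge, called 541 genes, 296 higher and 245 lower, and quantile normalization applied again called 163 lower genes, against 255, 155 and 100 above; the cause was not tested. The share of higher calls, 60.8% above, ran from 53.2% with renewed quantile normalization to 70.0% without array 1 at 0 h. Leaving out each array gave 201 to 230 calls, 133 to 161 higher, 68 to 90 lower and 65 to 72 of at least 2-fold. Without the 6 arrays at 48 h, where the Isl1 level goes against the labels, 157 genes were higher and 100 lower. Replicate numbers did not pair the samples (correlations of the deviations -0.078, 0.028 and -0.209): with the replicate number as a block 154 genes were higher and 95 lower, and Mir23a and Mir365-1 lost the call among named genes. With 3 arrays a group and no detection calls used, dim genes cannot be told from background.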

Other observations

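Apart from Tcim and Snord14e, the genes below were picked out after their values were seen. Of 53 small nucleolar RNA genes, which guide chemical changes of ribosomal RNA, 4 rose and 3 fell, that is 7.55% and 5.66%, against 0.777% and 0.502% of all genes. Snord14e had 11.87, 11.7 and 11.68 at 0.5 h and 9.48, 9.33 and 9.38 at 0 h, a 5.1-fold rise. Hspa8, the chaperone gene around it, averaged 13.99 ± 0.012 at 0.5 h and 13.92 ± 0.041 at 0 h (SD, n = 3 each) and did not pass. Snora31 (1.13), Snora70 (1.10) and Snora3 (0.63) also rose, while Tpt1, Rpl10 and Rpl27a around them differed by 0.0 each. Snord42b fell by 0.59, Snord95 by 0.35 and Snora7a by 0.34.

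Rises outside the lists included those of Tcim, with 8.69, 8.71 and 8.84 at 0.5 h and 6.43, 6.06 and 6.19 at 0 h (2.52 ± 0.108) and a mean of 11.65 at 4 h, Phlda1 (1.68), Ctla2a (1.59), Ppp1r15a (1.33), Arrdc3 (1.2) and the linker histone gene H1f3 (1.16).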
